A study of Mus musculus with 36 samples.

Results

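The heterotrimeric G protein subunits outside the Gi/o alpha family, together with the regulators of G protein signaling (RGS), were followed in islets of mice with or without Gαz. The set was chosen by name. It holds each gene with a Gnb, Gng or Rgs symbol followed by a digit, together with Gnas, Gnal, Gnaq, Gna11, Gna12, Gna13, Gna14 and Gna15. A gene was measured where the gene-level array annotation gave 1 probe cluster to that symbol alone, and the brightest such cluster stood for the gene. This gave 43 members of 14860 genes, namely 6 Gnb, 8 Gng, 8 Gna and 21 Rgs genes. Gng5 and Gng10 are not described because their clusters carry a second symbol, and Gnat3, Gnb2l1, Rgs21 and Rgs22 were not found under those symbols.

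RNA came from about 300 hand-picked islets of each male mouse, with 1 Affymetrix Mouse GeneChip Exon 1.0 ST array per mouse. The mice were wild type (WT) or full-body Gnaz knockouts (KO) on the C57BL/6N background, and the knockouts lack 1 protein-coding exon of Gnaz in every tissue. All were fed a control diet (CD, 10 kcal% fat) or a high-fat diet (HFD, 45 kcal% fat) for 16 weeks from 11 weeks of age, as the study's methods state. The labels give an age of 6 months, whereas the growth protocol gives 37 to 40 weeks, and the files do not settle which holds. The groups held 5 WT CD, 5 KO CD, 4 WT HFD and 3 KO HFD arrays. The study kept 3 of the 4 KO HFD arrays, and the array of islet 11 was taken to be the one it left out. That array is given separately where it matters. Values are log2 signals, so a difference of 1 is a doubling on the linear scale, and values of different genes are not compared with each other because probes differ in brightness. Of the members, 31 had a mean above the 95th percentile of 718 olfactory receptor genes (7.52), a level taken as background, and 12 did not. Within a group values are listed by islet number, which is 4, 5, 6, 14 and 15 in WT CD, 1, 2, 3, 12 and 13 in KO CD, 7, 8, 9 and 16 in WT HFD, and 10, 17 and 18 in KO HFD.

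A G protein is an alpha subunit that binds GTP, held in its resting state by a beta-gamma dimer. A ligand-bound receptor makes the alpha subunit exchange GDP for GTP, after which alpha and beta-gamma separate and each acts on effectors. Gαs raises cAMP, the Gi/o proteins, of which Gαz is one, lower it, and Gαq proteins activate phospholipase C beta. RGS proteins end the signal by speeding GTP hydrolysis on alpha subunits, mostly of the Gi/o and Gq classes. In beta cells, cAMP and phospholipase C signals both amplify insulin secretion at high glucose.

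The targeted gene followed the labels. Gnaz signal was 11.04 to 11.15 in WT CD, 11.02 to 11.26 in WT HFD, 10.20 to 10.56 in KO CD and 10.03 to 10.11 in KO HFD. Probe positions relative to the deleted exon were not used here. The 3 KO HFD arrays in the fit were dimmer as a whole. Their medians over all clusters were 7.94 to 7.98, against 8.02 to 8.12 on the other 14 arrays. Islet 11, the KO HFD array left out, was not dimmer, with a median of 8.05. The median difference of all genes was -0.13 between KO HFD and WT HFD and -0.18 between KO HFD and KO CD. Markers of other pancreatic cells moved with the groups too. The mean signal of 13 acinar enzyme genes of 22 listed was 12.69 to 13.16 in WT HFD and 13.43 to 13.83 in KO HFD, with no overlap. Its group means were 13.57 in WT CD, 13.27 in KO CD, 12.95 in WT HFD and 13.57 in KO HFD, so WT HFD was the lowest group. The mean of 12 endothelial genes was 9.85 to 9.94 in WT HFD and 9.67 to 9.73 in KO HFD. The mean of 9 beta cell genes was 12.92 to 13.06 in WT HFD and 12.78 to 12.90 in KO HFD, with no overlap. That difference, -0.12, was about the size of the one over all genes, and 3 of the 9 were higher in KO HFD. The mean of 4 alpha cell genes was 11.38 to 11.58 and 11.08 to 11.34, and that of 6 duct genes 7.83 to 8.02 and 8.03 to 8.46, each with no overlap. The duct group means on the CD were 8.41 in WT and 8.28 in KO, so WT HFD was the lowest group there too. The widest shift of any list was that of 3 delta cell genes, 11.52 to 11.94 in KO CD and 10.77 to 11.06 in KO HFD. The part of these shifts in the differences below was not tested other than with the acinar and leukocyte means as covariates. Leukocyte markers, 15 of 20 listed, were highest on 1 WT CD array (islet 14, 9.31) and 1 KO CD array (islet 13, 9.13). In RNA from whole islets, fewer cells of a type and less RNA per cell cannot be told apart.

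Differences were tested with limma over all 14860 genes, and a gene was called at a Benjamini-Hochberg adjusted p under 0.05. On the CD, none of the 43 members was called between KO and WT, where 0.155% of all genes were, although 8 members had an unadjusted p under 0.05, as did 15.6% of all genes. No member was called between WT HFD and WT CD either (0.188% of all genes), and 5 had an unadjusted p under 0.05, as did 8.48% of all genes. The calls lay in the KO HFD islets. Against WT HFD, 15 members (34.9%) were lower and none higher, where 29.4% of all genes were called and 28.1% were lower. Against KO CD, 18 members (41.9%) were lower and none higher, where 46.1% of all genes were called and 44.6% were lower. Neither share stands far from that of the array as a whole. The median difference of the members was -0.17 against WT HFD and -0.19 against KO CD, close to the medians of all genes given above.

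**Figure D1:**
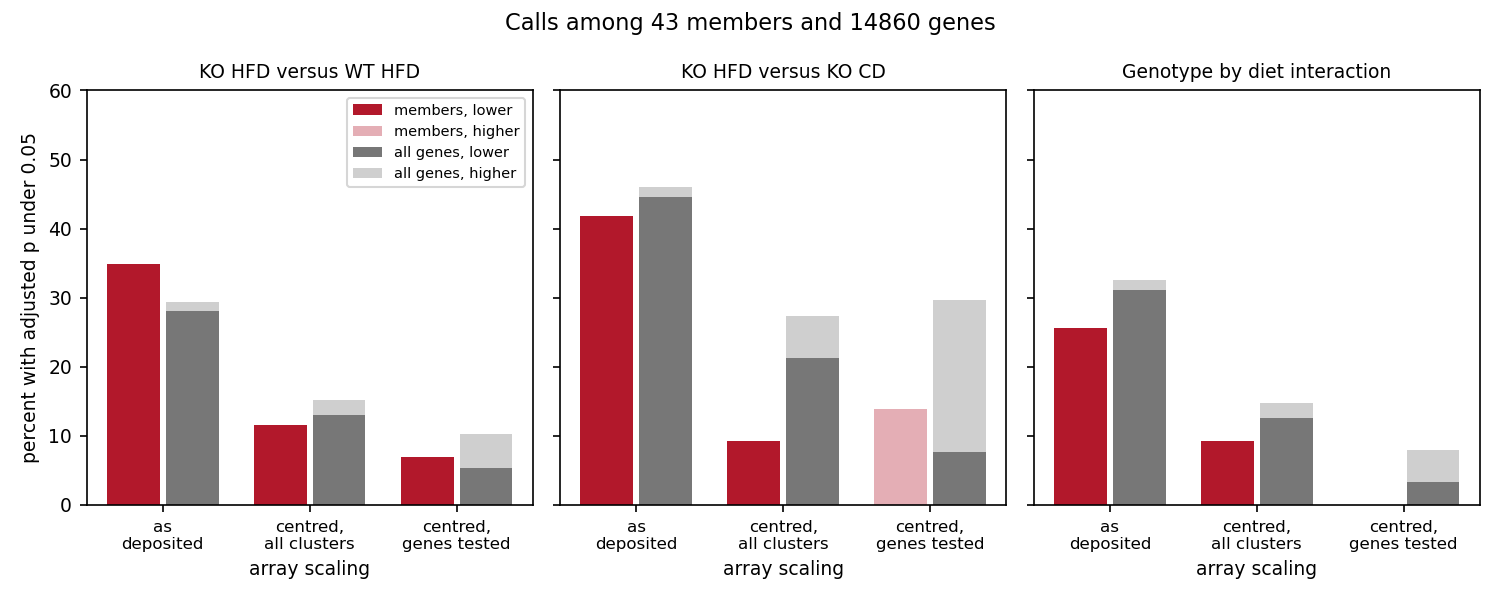
Share of the 43 members (red) and of all 14860 genes (grey) with an adjusted p under 0.05 in the 3 comparisons that involve KO HFD islets, with lower calls in dark and higher calls in light color, for values as deposited and after each array was centred on its median over all clusters or over the genes tested. The members' bar follows that of all genes as deposited, and in KO HFD versus KO CD it turns from lower to higher with the second centring.

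Since the KO HFD arrays in the fit were dimmer throughout, each array was also centred on its median. With centring on the median over all clusters, 5 members stayed lower in KO than in WT on the HFD (13.0% of all genes), 4 than in KO CD (21.2% of all genes) and 4 in the genotype by diet interaction (12.6% of all genes). The first 5 were Rgs16, Rgs5, Gnb4, Gna12 and Gng2. With centring on the median over the genes tested, an alternative chosen after seeing the data, Rgs16, Rgs5 and Gnb4 stayed lower than in WT HFD, against 5.35% of all genes. In KO HFD versus KO CD that centring turned the calls around. There, 22.0% of all genes were called higher, and the 6 members called were higher, namely Gnal, Gnb3, Rgs6, Rgs8, Rgs12 and Rgs14, with log2 differences of 0.20 to 0.28. Of these, Gnal, Gnb3 and Rgs6 were not above background, and Rgs8 was above it in 3 of the 4 groups. In the interaction that centring left 0 members by limma, where 8.00% of all genes were called. The direction of most members in KO HFD islets therefore holds relative to the signal as deposited, and only Rgs16, Rgs5 and Gnb4 were called lower than in WT HFD under all 4 rescalings tried, which include quantile normalization (9.15% of all genes lower) and cyclic loess (6.41%). With the acinar enzyme mean as a covariate, limma called 0 members in that comparison (0.861% of all genes), although 13 had an unadjusted p under 0.05, as did 25.8% of all genes.

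**Figure D2:**
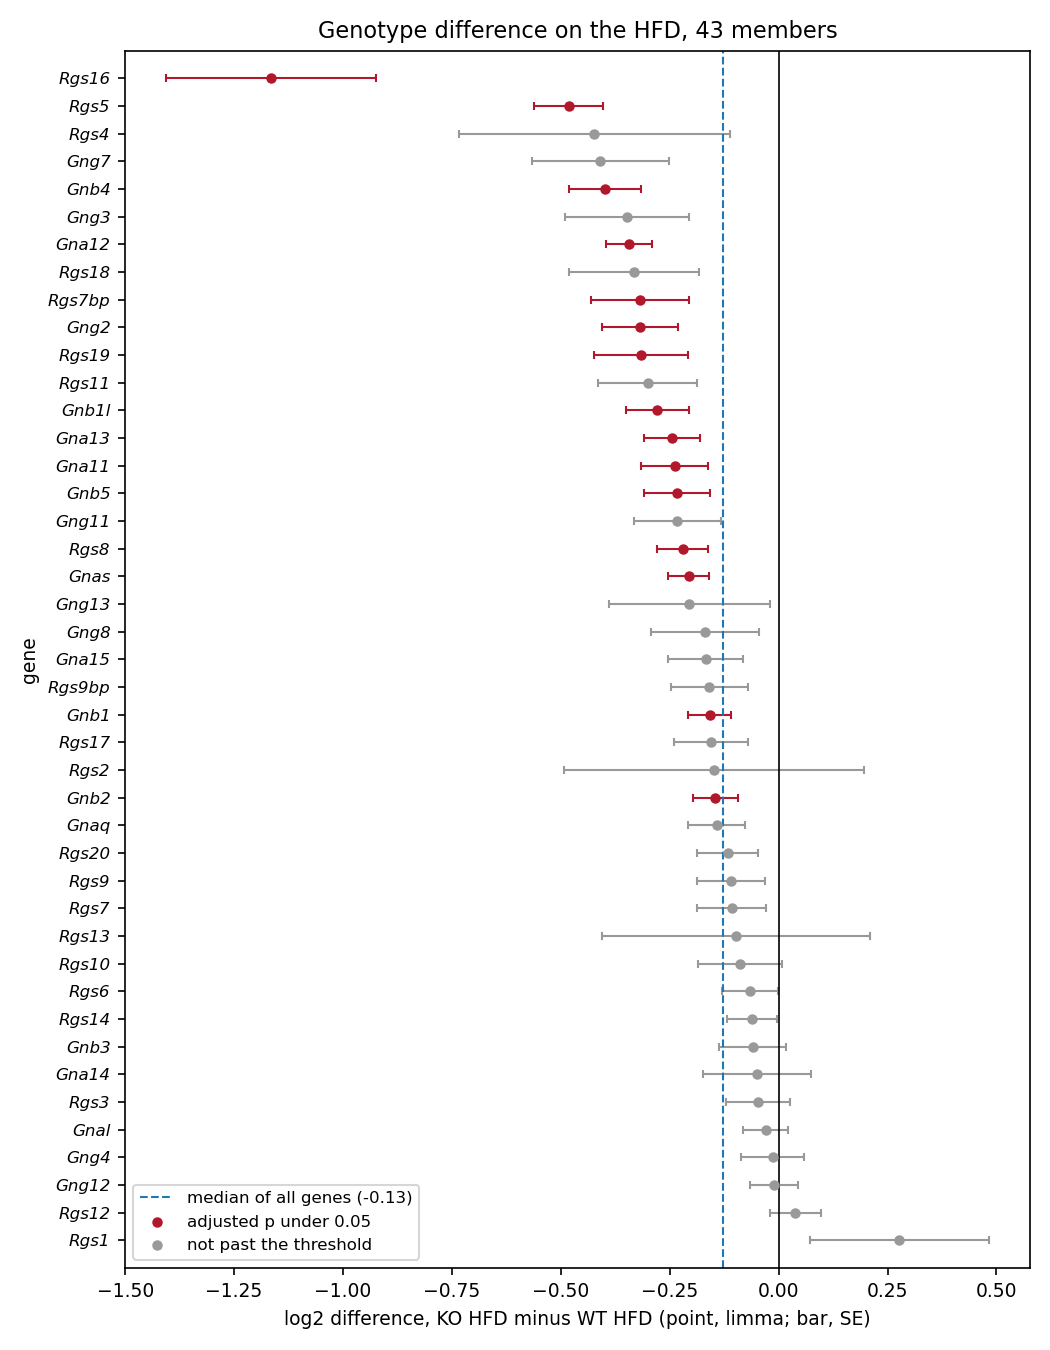
Log2 difference between KO HFD and WT HFD islets for each of the 43 members (points, limma estimate; bars, SE), with called members in red and the median of all genes as a dashed line. Rgs16 lies farthest to the left at -1.16, and 41 of the 43 members lie below 0, most of them near the line of all genes.

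Rgs16, an R4 family RGS protein that acts on Gi/o and Gq alpha subunits, had the largest difference of any member between KO and WT on the HFD. Its signal was 11.38, 11.39, 11.29 and 10.87 in WT HFD islets and 9.43, 9.96 and 10.82 in KO HFD islets. All KO HFD arrays lay below all WT HFD arrays, with the highest, islet 18, only just below. On the CD it was 10.78, 11.14, 11.03, 10.71 and 10.94 in WT and 10.25, 10.50, 10.00, 10.71 and 10.20 in KO. The groups touched there at 10.71 without overlapping. The difference on the HFD was -1.16 (SE 0.24, adjusted p = 0.0033), or 2.24-fold lower in KO, and on the CD it was -0.59 (SE 0.20, adjusted p = 0.218). The genotype difference was not shown to depend on diet (interaction -0.58, SE 0.31, adjusted p = 0.168). Averaged over both diets, a contrast chosen after seeing the data, Rgs16 was 1.84-fold lower in KO islets (-0.88, SE 0.16, adjusted p = 0.0049). The array of islet 11, left out of these values, stood at 10.06. The call on the HFD stood without any 1 array (adjusted p 5.65e-04 to 0.0174) but not with the acinar enzyme mean as a covariate, where the difference was -0.94 (adjusted p = 0.149).

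Rgs5, another R4 member, known as a marker of pericytes, followed the same order of groups with smaller steps. It was 11.09, 11.26, 11.28 and 11.07 in WT HFD and 10.85, 10.53 and 10.70 in KO HFD, and 11.09, 10.97, 10.96, 11.05 and 10.88 in WT CD and 10.73, 10.93, 10.84, 10.88 and 10.86 in KO CD. The HFD groups did not overlap, while the CD groups did. The difference on the HFD was -0.48 (SE 0.08, adjusted p = 0.0010), that on the CD -0.14 (SE 0.07, adjusted p = 0.314), and the diet difference was more negative in KO than in WT (interaction -0.34, SE 0.10, adjusted p = 0.0202). The interaction lost its call under all 4 rescalings, and with the acinar covariate the HFD difference was -0.53 (adjusted p = 0.0545). Rgs5 is the only member with a second cluster of its own. That cluster gave -0.19 (SE 0.12, adjusted p = 0.253) in KO HFD against WT HFD, so the 2 clusters differ on the call. Of the 12 endothelial and 13 stellate cell and fibroblast markers, 1 and 2 were higher in KO than in WT on the HFD, and their part in the Rgs5 difference was not tested.

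Rgs2, which acts mainly on Gαq, was the member with the widest spread between arrays of a group, with a within-group SD of 0.50 against a median of 0.11 over all genes. It was 10.74, 10.95, 11.57, 12.23 and 12.35 in WT CD and 12.81, 12.88, 12.98 and 12.79 in WT HFD. Every WT HFD array was above every WT CD array, and the WT CD arrays split between islets 4 to 6, which were low, and islets 14 and 15. In KO islets it was 12.54, 12.26, 12.27, 11.39 and 12.34 on the CD and 12.26, 13.07 and 12.83 on the HFD, and these groups overlapped because islet 10 of the HFD group was low. The WT diet difference of 1.30 (SE 0.30) missed the threshold over all genes (adjusted p = 0.129), with a range of 0.052 to 0.381 when 1 array was left out, and was called with array weights (1.43, adjusted p = 0.010). Averaged over both genotypes, Rgs2 was higher on the HFD (0.93, SE 0.22, adjusted p = 0.0128), 1 of 12 members called in that contrast (25.8% of all genes) and the only one that was higher. Within islet numbers 1 to 11 the WT diet difference was 1.80 (3 against 3 arrays), and within 12 to 18 it was 0.50 (1 against 2). The KO against WT difference on the CD was 1.27 in the former and -0.43 in the latter. The labels do not say whether islet numbers follow batches.

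Rgs4, also of the R4 family and able to act on Gi/o and Gq, showed the second widest spread (within-group SD 0.45). It was 10.16, 10.18, 10.05, 9.04 and 9.25 in WT CD, 9.19, 10.34, 9.51, 9.53 and 8.88 in KO CD, 9.88, 9.79, 9.71 and 9.37 in WT HFD and 9.58, 9.10 and 9.11 in KO HFD. The WT CD arrays split between the same islets as for Rgs2, but with islets 4 to 6 high. No difference between groups was called, and the KO HFD against WT HFD difference of -0.42 (SE 0.31, adjusted p = 0.328) missed the threshold.

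**Figure D3:**
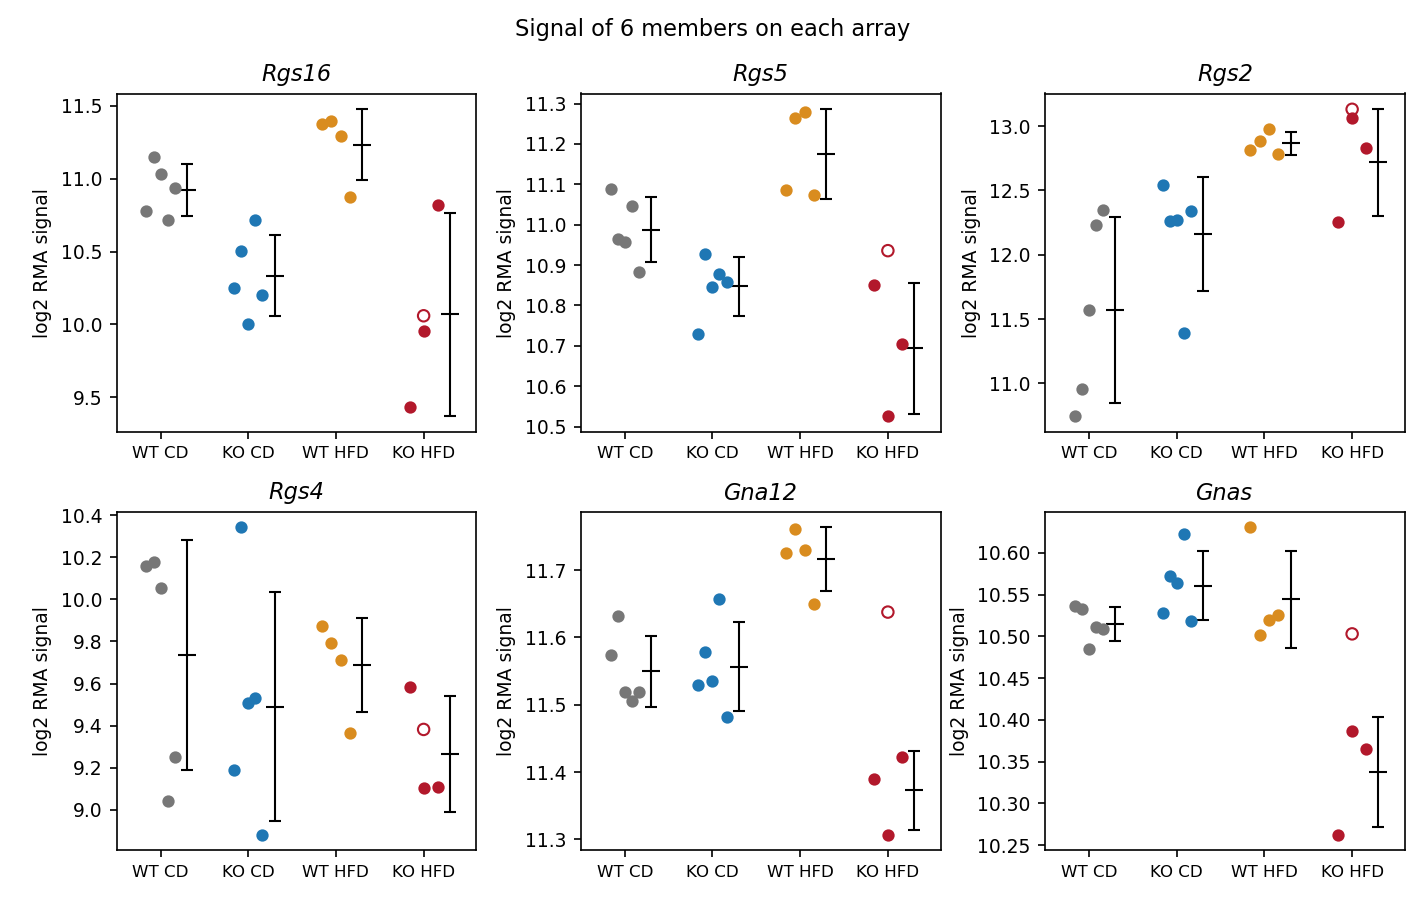
Log2 signal of 6 members on each array by group (points), with the group mean and SD beside them (bars); the open circle is KO HFD islet 11, which is not in the means. Rgs16, Rgs5, Gna12 and Gnas are lower in all 3 KO HFD arrays than in any WT HFD array, whereas Rgs2 varies most within WT CD and Rgs4 within WT CD and KO CD.

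The promoter windows of these 4 RGS genes are shown because they hold the largest genotype differences and the widest spread among the members. All 4 genes lie on chromosome 1, where Rgs5 and Rgs4 are neighbours in the RefSeq gene order, and so are Rgs8 and Rgs16, and Rgs2 and Rgs13. Each window runs from 250 bases before the RefSeq transcription start to 50 bases after it (GRCm38.p6), written 5′ to 3′ on the gene's strand. Capitals mark the half-site of the cAMP response element, TGACG or its reverse complement CGTCA, and the CCAAT box, CCAAT or its reverse complement ATTGG.
Rgs16, chr1:153740103-153740402, plus strand: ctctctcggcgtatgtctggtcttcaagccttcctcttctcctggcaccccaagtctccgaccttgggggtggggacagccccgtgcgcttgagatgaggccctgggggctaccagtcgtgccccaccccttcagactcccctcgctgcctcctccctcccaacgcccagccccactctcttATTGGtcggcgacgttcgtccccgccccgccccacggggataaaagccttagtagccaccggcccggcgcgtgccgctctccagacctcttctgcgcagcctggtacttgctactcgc
Rgs5, chr1:169655251-169655550, plus strand: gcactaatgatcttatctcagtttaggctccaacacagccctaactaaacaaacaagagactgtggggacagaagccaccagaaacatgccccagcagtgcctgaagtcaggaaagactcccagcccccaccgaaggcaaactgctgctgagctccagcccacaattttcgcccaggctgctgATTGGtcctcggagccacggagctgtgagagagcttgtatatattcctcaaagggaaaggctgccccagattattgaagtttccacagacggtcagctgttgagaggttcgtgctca
Rgs2, chr1:144004100-144004399, minus strand: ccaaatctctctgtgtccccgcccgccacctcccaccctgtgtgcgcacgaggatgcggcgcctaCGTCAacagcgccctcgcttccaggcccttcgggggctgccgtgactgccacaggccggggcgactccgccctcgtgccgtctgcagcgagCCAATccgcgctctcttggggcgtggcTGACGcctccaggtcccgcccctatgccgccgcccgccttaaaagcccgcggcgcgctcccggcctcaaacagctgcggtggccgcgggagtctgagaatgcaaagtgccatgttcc
Rgs4, chr1:169747593-169747892, minus strand: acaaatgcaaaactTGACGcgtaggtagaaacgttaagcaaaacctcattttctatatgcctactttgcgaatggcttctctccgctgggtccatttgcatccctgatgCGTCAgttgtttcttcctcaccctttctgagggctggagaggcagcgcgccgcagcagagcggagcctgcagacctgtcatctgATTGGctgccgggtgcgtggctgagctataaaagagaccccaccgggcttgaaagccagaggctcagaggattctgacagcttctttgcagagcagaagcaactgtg
Each window holds 1 CCAAT box, starting between 57 and 94 bases before the transcription start. Rgs2 and Rgs4 each hold 2 cAMP response element half-sites, whereas neither Rgs16 nor Rgs5 holds one. Windows were given for 33 of the 43 members, 46 windows in all, of which 28.3% hold the half-site and 32.6% the CCAAT box, against 20.8% and 37.4% of all 32851 windows. These are matches of letters, not sites of binding.

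The other R4 members moved little. Rgs8, known with Rgs16 from the developing mouse pancreas, was called lower in KO than in WT on the HFD (-0.22, SE 0.06, adjusted p = 0.0124), with a mean above background in 3 of the 4 groups. Rgs3 was called lower in KO HFD than in KO CD (-0.24, SE 0.07, adjusted p = 0.0110) as deposited and stood at 0.01 after centring on the genes tested. Rgs18, known from platelets, was 6.29, 5.90, 5.91, 5.77 and 6.06 in KO CD and 5.59, 5.67 and 5.61 in KO HFD. It was called lower (-0.36, SE 0.14, adjusted p = 0.0488), yet all group means lay below background, and the call was lost in 21 of 31 alternatives. Islet 11, the KO HFD array left out, had the highest value of all 18 arrays, 6.45, and the call ended with it included. In WT CD Rgs18 was 5.68, 6.30, 6.37, 6.26 and 5.87 and in WT HFD 5.95, 5.94, 5.81 and 6.13, and the WT CD range took in every KO CD array. Rgs1 and Rgs13, both known from lymphocytes, were called nowhere. Rgs13, not above background in any group, had its highest value, 6.50, on WT CD islet 14, the array with the highest leukocyte markers. Its next highest, 6.42, was on KO HFD islet 11, where the leukocyte mean was 8.21. Rgs1 had its highest value, 9.21, on KO CD islet 2, where the leukocyte mean was 8.24.

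The RZ family takes its name from Gαz, the subunit missing here, whose GTP hydrolysis its members accelerate. Its 3 members did not share a pattern. Rgs19 was 9.55, 9.21, 9.34 and 9.40 in WT HFD and 9.27, 8.99 and 8.92 in KO HFD, with overlap, and 9.40, 9.47, 9.26, 9.63 and 9.36 in WT CD and 9.23, 9.40, 9.36, 9.45 and 9.63 in KO CD. KO HFD was called lower than WT HFD (-0.32, SE 0.11, adjusted p = 0.0376) and than KO CD (-0.36, SE 0.10, adjusted p = 0.0106), and lost the former call when 1 of several arrays was left out (adjusted p up to 0.162). Its highest value, 9.63, came from WT CD islet 14 and KO CD islet 13, the arrays with the highest leukocyte markers. Rgs17 was 8.32, 8.40, 8.46, 8.44 and 8.49 in WT CD, 8.43, 8.75, 8.65, 8.74 and 8.53 in KO CD, 8.52, 8.71, 8.62 and 8.46 in WT HFD and 8.48, 8.27 and 8.51 in KO HFD. It was higher on 4 of the 5 KO CD arrays than on any WT CD array, and only its interaction was called (-0.35, SE 0.11, adjusted p = 0.0235). Rgs20, the member best known for its selectivity for Gαz, was not above background and was called nowhere. Its range was 6.28 to 6.31 in WT CD, 6.22 to 6.48 in KO CD, 6.21 to 6.41 in WT HFD and 6.05 to 6.28 in KO HFD. The R12 family, Rgs10, Rgs12 and Rgs14, was not called in any of the 5 contrasts as deposited.

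R7 family RGS proteins form a stable complex with Gnb5 and are held at the membrane by Rgs7bp. The beta subunit and the anchor of that complex were called lower in KO HFD islets in both comparisons as deposited. Rgs7bp was 9.98, 10.09, 10.26 and 10.08 in WT HFD, 9.52, 9.89 and 9.95 in KO HFD, 9.86, 9.96, 9.76, 9.88 and 10.10 in WT CD and 10.10, 10.24, 9.94, 10.34 and 10.08 in KO CD. It thus leaned higher in KO than in WT on the CD (0.23, SE 0.09, adjusted p = 0.269) and was lower in KO on the HFD (-0.32, SE 0.11, adjusted p = 0.0426). The latter call was lost in 15 of 32 alternatives, among them 8 of the 17 that leave out 1 array (adjusted p up to 0.235) and all 4 rescalings. Its interaction of -0.54 (SE 0.15, adjusted p = 0.0127) was the largest of the called members. Gnb5 was 10.31 to 10.59 in WT HFD and 10.17 to 10.24 in KO HFD, a difference of -0.23 (SE 0.08, adjusted p = 0.0293). That call was lost in 12 of 32 alternatives, among them all 4 rescalings. Against KO CD the Gnb5 difference was -0.19 (SE 0.07, adjusted p = 0.0381) as deposited but 0.05 to 0.06 after quantile, loess or gene median scaling. Of the 4 R7 genes, Rgs7 and Rgs9 were called lower in KO HFD than in KO CD (-0.23 and -0.19), and both also turned to above 0 under those 3 scalings. Rgs6 and Rgs11 were not called as deposited. Rgs9bp, the retinal anchor, was not above background.

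Gnas encodes Gαs, the subunit that raises cAMP opposite to Gαz, from an imprinted locus whose transcripts share exons that a gene-level cluster does not separate. Its signal was 10.63, 10.50, 10.52 and 10.53 in WT HFD and 10.26, 10.39 and 10.37 in KO HFD, and 10.54, 10.53, 10.48, 10.51 and 10.51 in WT CD and 10.53, 10.57, 10.56, 10.62 and 10.52 in KO CD. The 3 KO HFD arrays were below the other 14, which spanned 10.48 to 10.63, while islet 11 stood among those 14 at 10.50. The difference was -0.21 (SE 0.05, adjusted p = 0.0060) against WT HFD, or 1.15-fold, and -0.22 (SE 0.05, adjusted p = 0.0015) against KO CD, which turned to 0.01 to 0.03 after quantile, loess or gene median scaling. On the CD it did not differ beyond its error between the genotypes (0.05, SE 0.04, adjusted p = 0.577). Gnal, the olfactory relative of Gnas, was 7.38, 7.34, 7.29, 7.25 and 7.44 in WT CD, 7.32, 7.36, 7.36, 7.48 and 7.36 in KO CD, 7.40, 7.39, 7.34 and 7.38 in WT HFD and 7.33, 7.37 and 7.33 in KO HFD. All groups overlapped, at a level not above background, and no contrast of the values as deposited was called.

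Of the 4 Gq family genes, Gnaq and Gna11 encode the broadly expressed members. Gna11 was 11.56, 11.30, 11.32 and 11.23 in WT HFD and 11.16, 11.10 and 11.09 in KO HFD, and 11.36, 11.49, 11.40, 11.32 and 11.45 in WT CD and 11.32, 11.45, 11.34, 11.52 and 11.26 in KO CD. The KO HFD arrays lay below all others, but islet 11 had the highest value of all, 11.61. Gna11 was called lower in KO on the HFD (-0.24, SE 0.08, adjusted p = 0.0296), a call that ended with islet 11 included (-0.12, adjusted p = 0.438), and lower than in KO CD (-0.26, SE 0.07, adjusted p = 0.0087). Gnaq was 11.51, 11.30, 11.41 and 11.24 in WT HFD and 11.28, 11.18 and 11.21 in KO HFD, with overlap, and 11.40, 11.38, 11.40, 11.37 and 11.41 in WT CD and 11.36, 11.54, 11.43, 11.51 and 11.33 in KO CD. It was called lower only against KO CD (-0.21, SE 0.06, adjusted p = 0.0107), and turned to 0.01 and 0.04 with loess and gene median scaling. Gna14, which also activates phospholipase C, was 8.18, 8.51, 8.22, 8.35 and 8.19 in WT CD, 8.11, 7.88, 8.04, 8.11 and 8.34 in KO CD, 8.17, 8.16, 8.13 and 8.10 in WT HFD and 8.44, 7.84 and 7.99 in KO HFD. Within KO HFD, islet 10 stood above the other two arrays, and no contrast was called. Gna15, known from blood cells, was 7.46, 7.55, 7.47, 7.48 and 7.25 in WT CD, 7.19, 7.50, 7.40, 7.50 and 7.47 in KO CD, 7.50, 7.27, 7.28 and 7.49 in WT HFD and 7.17, 7.25 and 7.23 in KO HFD. It was at background and was not called.

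Both G12 family subunits were called lower in KO HFD islets in both comparisons and in the interaction as deposited. Gna12 was 11.73, 11.76, 11.73 and 11.65 in WT HFD and 11.39, 11.31 and 11.42 in KO HFD, and 11.57, 11.63, 11.52, 11.51 and 11.52 in WT CD and 11.53, 11.58, 11.53, 11.66 and 11.48 in KO CD. The WT HFD arrays lay above all WT CD arrays and overlapped only with KO CD islet 12, and the KO HFD arrays lay below all others, with islet 11 at 11.64. The difference on the HFD was -0.34 (SE 0.05, adjusted p = 7.12e-04), or 1.27-fold lower in KO, and that on the CD 0.01 (SE 0.04, adjusted p = 0.957). The interaction was -0.35 (SE 0.07, adjusted p = 0.0041). The HFD call was lost with centring on the genes tested and with the acinar covariate (-0.35, adjusted p = 0.0556), and the interaction also with quantile and loess scaling. Against KO CD the difference was -0.18 (SE 0.05, adjusted p = 0.0078) as deposited and turned to 0.02 to 0.07 after quantile, loess or gene median scaling. Gna13 was 11.05 to 11.31 in WT HFD and 10.90 to 10.96 in KO HFD (-0.24, SE 0.06, adjusted p = 0.0111), and 11.17 to 11.35 in KO CD (-0.31, SE 0.06, adjusted p = 0.0012). The calls of Gna13 against WT HFD and in the interaction were lost under all 4 rescalings, and also with islet 11, at 11.23, included. Of the rescalings, only centring on all clusters kept the call against KO CD.

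Of the 5 beta subunits, 4 were called lower in KO HFD islets in each of the 2 comparisons as deposited, where 28.1% and 44.6% of all genes were lower, and 1 in each after centring on all clusters, although Gnb1, Gnb2 and Gnb5 turned to above 0 under other scalings. Gnb3, the cone photoreceptor form, was not above background and was not called as deposited. Gnb4 was 8.60, 8.44, 8.40 and 8.22 in WT HFD and 7.89, 8.03 and 8.14 in KO HFD, and 8.36, 8.44, 8.46, 8.47 and 8.46 in WT CD and 8.23, 8.29, 8.28, 8.52 and 8.30 in KO CD. Its HFD groups did not overlap, and the KO CD arrays other than islet 12 lay below all WT CD arrays. The difference on the HFD was -0.40 (SE 0.08, adjusted p = 0.0034), or 1.32-fold lower in KO, and stood under each scaling (-0.23 to -0.33, adjusted p 0.0098 to 0.0439) but not with the acinar covariate (-0.42, adjusted p = 0.0853). Averaged over both diets it was -0.26 (SE 0.05, adjusted p = 0.0109). Gnb1 and Gnb2, the most widely expressed beta subunits, differed by -0.16 (adjusted p = 0.0237, SE 0.05) and -0.15 (adjusted p = 0.0443, SE 0.05) from WT HFD as deposited, near the median of all genes, and both turned to above 0 with loess and gene median scaling. With islet 11 included, at 13.13 for Gnb1 and 11.58 for Gnb2, both lost their calls against WT HFD and in the interaction. Gnb1l, a WD-repeat protein that only resembles beta subunits, was called lower too (-0.28, SE 0.07, adjusted p = 0.0113).

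Gamma subunits anchor the dimer at the membrane through a lipid group. Of the 8 measured, Gng2 alone was called lower in both KO HFD comparisons. Gng2 was 9.68, 9.36, 9.52 and 9.47 in WT HFD and 9.14, 9.29 and 9.14 in KO HFD, and 9.45, 9.54, 9.25, 9.47 and 9.49 in WT CD and 9.48, 9.52, 9.51, 9.78 and 9.63 in KO CD. The KO HFD arrays overlapped with WT CD islet 6 alone. The differences were -0.32 (SE 0.09, adjusted p = 0.0142) against WT HFD and -0.39 (SE 0.08, adjusted p = 0.0019) against KO CD, with an interaction of -0.46 (SE 0.11, adjusted p = 0.0093). Gng3, a neuronal form, was 6.12, 6.64, 6.76, 6.72 and 6.68 in KO CD, 6.21, 6.11 and 5.92 in KO HFD, 6.56, 6.65, 6.50, 6.19 and 6.40 in WT CD and 6.67, 6.38, 6.29 and 6.37 in WT HFD. Its difference against KO CD, -0.50 (SE 0.14, adjusted p = 0.0067), was the most negative of that comparison, at a level not above background and with 1 low KO CD array. Gng12 was called lower against KO CD (-0.16) and stood at 0.09 with gene median scaling. Gng4 and Gng7, and Gng8, Gng11 and Gng13, which were not above background, were called nowhere.

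The diet question was then asked of the difference itself. The interaction, the diet difference in KO minus that in WT, was negative and called for 11 members (25.6%), where 32.6% of all genes were called and 31.2% were lower. These were Rgs7bp, Gng2, Rgs17, Gna12, Rgs5, Gna13, Rgs7, Gnb5, Gnb1, Gnas and Gnb2, from -0.54 to -0.18, and the median over the members was -0.22 against -0.18 over all genes. Rgs7bp, Gng2, Gna12 and Gnb1 stayed called after centring on all clusters (12.6% of all genes lower). No member was called under quantile, loess or gene median scaling, where 9.72%, 7.47% and 8.00% of all genes were called. None was called with the acinar covariate either, but there 0 of all 14860 genes were. Gnas and Gnb2 turned to above 0 with loess, and Gnb2 also with quantile and gene median scaling. Averaged over both diets, 5 members were called lower in KO, Rgs16, Rgs5, Gnb4, Gna12 and Rgs8, where 5.54% of all genes were called and 4.96% were lower. The calls of Rgs16, Rgs5 and Gnb4 in that contrast stood in all 31 alternatives run for it. None of these used the second Rgs5 cluster alone, which gave -0.12 there and was not called by limma (SE 0.08, adjusted p = 0.425).

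**Figure D4:**
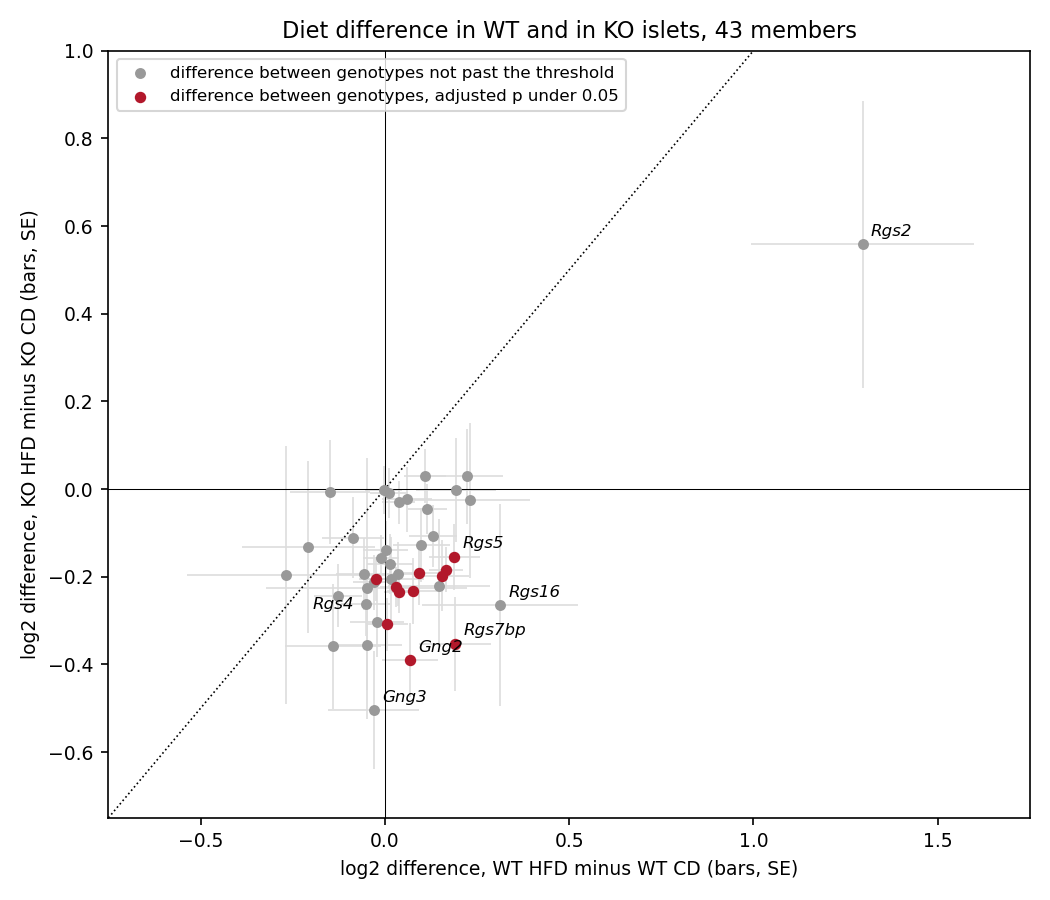
Diet difference (HFD minus CD) in WT islets against that in KO islets for the 43 members, in log2 units with SE bars, with the dotted line where both are equal and members whose 2 differences differ (interaction, adjusted p under 0.05) in red. Rgs2 lies far to the right at 1.30 and 0.56, and the 11 red members lie below the line, between -0.54 and -0.18 from it.

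Partners of the G protein cycle were taken from a list of 32 genes, of which 27 were measured. Against WT HFD, 5 were lower and 1 higher in KO HFD, against KO CD 12 were lower, and in the interaction 10 were, where 28.1%, 44.6% and 31.2% of all genes were lower. The medians were -0.09, -0.15 and -0.20 beside -0.13, -0.18 and -0.18 over all genes. After centring on all clusters, 3 were lower and 1 higher, 7 were lower and 4 were lower, against 13.0%, 21.2% and 12.6% of all genes lower. None was called on the CD or between the diets in WT. Ric8b, a chaperone of Gαs and Gαolf, had a mean of 11.14 in WT HFD and 10.31 in KO HFD, against 10.84 in WT CD and 10.81 in KO CD. Its difference on the HFD was -0.83 (SE 0.13, adjusted p = 6.67e-04), with an interaction of -0.81 (SE 0.16, adjusted p = 0.0044). Pdcl, a phosducin-like protein needed to assemble beta-gamma dimers, fell in KO HFD islets against WT HFD (-0.52, SE 0.11, adjusted p = 0.0033) and against KO CD (-0.53, SE 0.10, adjusted p = 0.0012). Grk6, a receptor kinase, differed by -0.34 in both (adjusted p = 0.0033 and 0.0012), and Snx14, a sorting nexin with an RGS domain, by -0.29 against KO CD (adjusted p = 0.0012). Grk5, another receptor kinase, was the one that was higher in KO on the HFD (0.27, SE 0.10, adjusted p = 0.0474).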

How the data were processed

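The deposited values were log2 gene-level signals, made by the authors with RMA in Affymetrix Expression Console 1.3 per the labels. Genome build and probe set version are not given in the sources used here. All 18 arrays are in the table, and exon-level values of the same preparations were not used here. Of 23332 clusters, 14996 carried 1 symbol, 1019 several and 7317 none, which left 14860 genes after the brightest cluster of 135 genes with more than 1 was kept. Group means were fitted to 17 arrays with limma 3.58.1 (R 4.3.3) with empirical Bayes moderation, without KO HFD islet 11. The study does not name the array it left out. This one was inferred because group differences computed without it matched printed ones, so that choice rests on the study's own results. P-values were adjusted by the Benjamini-Hochberg method over all genes. Cell type list means were compared by exact permutation tests over arrays. The fit was tested on simulated data first. Members and lists were chosen with earlier results of these data known. Named genes were all members, with values per array for Rgs16, Gs and Gq family genes and the 5 largest calls of each contrast, and partner genes among the 3 smallest adjusted p-values. Rgs2 and Rgs4 were added after their values were seen. Alternatives covered the arrays used, scaling, variance model, genes tested, islet number and cell marker covariates. Promoter windows came from RefSeq (GRCm38.p6). The number of arrays limits the precision. Of 32 comparisons of cell type lists, none had an adjusted p under 0.05. In KO HFD versus WT HFD the smallest p that the exact permutation test could give was 0.057, so no list could pass there.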

Additional observations from a re-analysis of the deposited data

Results flagged for a closer look

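Among the members shown by array, 54 groups of 4 or 5 arrays were checked for 1 array far from the rest, and 4 were found, where chance flags about 1 in 20. All 4 were in KO CD. Islet 12 of KO CD was high for Gnal (7.48) and Gnb4 (8.52) and low for Rgs2 (11.39), and islet 1 was low for Gng3 (6.12).

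The diet difference in KO islets minus that in WT islets passed the interaction test, by limma, for 11 members. The values were -0.54 for Rgs7bp, -0.46 for Gng2, -0.35 for Rgs17, -0.35 for Gna12, -0.34 for Rgs5, -0.32 for Gna13, -0.31 for Rgs7, -0.29 for Gnb5, -0.27 for Gnb1, -0.25 for Gnas and -0.18 for Gnb2. The shift of the KO HFD arrays as a whole, -0.18 over all genes, was of the size of the smallest of these, and its part in them was not tested other than by the rescaling given in the report.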

How the results depend on the processing

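Over 112 pairs of a member and a contrast and 32 alternatives, 2998 values kept their side of the threshold. Another 471 fell short of it, 11 passed it and 38 reversed in sign with a call before or after. A change of sign between values that were both not called was counted among the 2998. No paired analysis was possible because each islet number in the labels belongs to 1 mouse and none recurs in another group. Where no share of all genes stands beside a count below, it does not show whether the members or all genes moved. Calls among the members in KO HFD versus WT HFD were 11 with all 18 arrays and 9 with only those groups in the fit. They were 5 with median centring over all clusters (15.1% of all genes), 5 with quantile normalization (12.8%) and 4 with cyclic loess (11.0%). Centring over the genes tested, chosen after seeing the data, gave 3 (10.3%), and the acinar enzyme mean as a covariate gave 0 (0.861%). In KO HFD versus KO CD the calls were 4, 2, 1 and 6 under median centring, quantile, loess and gene centring (27.3%, 17.0%, 15.9% and 29.6% of all genes). In the interaction they were 4, 0, 0 and 0 (14.8%, 9.72%, 7.47% and 8.00% of all genes). The acinar covariate gave 0 in the interaction, where it left 0 of all genes called. With all 18 arrays these contrasts gave 15 and 8 calls. The leukocyte covariate gave 15 calls in KO HFD versus WT HFD, 19 in KO HFD versus KO CD and 12 in the interaction. Among them were 15, 17 and 11 of the members called as deposited. WT HFD versus WT CD gave 2 with array weights, Rgs2 and Gna12. Averaged over diets, the genotype contrast gave 3 with all 18 arrays, 8 with array weights and 3 with gene centring (4.6% of all genes). Averaged over genotypes, the diet contrast gave 5 with all 18 arrays. It gave 1 with median centring, quantile, loess or the acinar covariate (4.15%, 3.69%, 3.38% and 8.22% of all genes). With gene centring it gave 6, all higher (13.6% of all genes called). Leaving out 1 array gave 8 to 16 calls in KO HFD versus WT HFD (9 without KO HFD 17 and 8 without KO HFD 18), 12 to 19 in KO HFD versus KO CD (12 without KO HFD 17), 7 to 13 in the interaction (7 without KO HFD 17), 0 in the other pair of contrasts, 4 to 6 in the averaged genotype contrast and 3 to 14 in the averaged diet contrast, which fell to 3 or 4 without any of WT CD 5 or 15, KO CD 2 or 12, WT HFD 8, 9 or 16, or KO HFD 17 or 18, and to 7 without WT CD 14.

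All values counted as reversed came from quantile, loess or gene centring. In KO HFD versus WT HFD, Gnb1 was 0.002 with loess and 0.011 with gene centring, and Gnb2 0.038, 0.044 and 0.024 under the 3 in that order. In KO HFD versus KO CD the 3 gave 0.019, 0.031 and 0.066 for Gna12, 0.007, 0.027 and 0.027 for Gnas, 0.045, 0.062 and 0.058 for Gnb5, 0.011, 0.025 and 0.018 for Rgs7 and 0.036, 0.064 and 0.056 for Rgs9. Loess and gene centring gave 0.009 and 0.037 for Gnaq and 0.01 and 0.045 for Gnb2, and gene centring alone 0.219 for Gnal, 0.015 for Gnb1, 0.092 for Gng12 and 0.007 for Rgs3. In the interaction, Gnas was 0.009 with loess and Gnb2 0.025, 0.047 and 0.054 under the 3. In the averaged diet contrast, Gnas was 0.015, 0.023 and 0.035, and gene centring gave 0.011 for Gnaq, 0.034 for Gnb1 and 0.018 for Gnb2. The cause of these changes was not tested. The 12 members not above background carry little signal on any array.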
